A study of Mus musculus with 23 samples.

Results

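The 9 genes described here encode transcription factors of the interferon response: the interferon regulatory factors Irf1, Irf2, Irf3, Irf5, Irf7 and Irf9, and the signal transducers and activators of transcription Stat2, Stat3 and Stat4. They were found by gene symbol among the 47729 Ensembl gene identifiers of the deposited table, 1 identifier for each, and all 9 passed the filter on low expression that left 19597 genes to be tested. RNA was sequenced from dendritic cells (DCs) sorted from pooled spleens of wild type Balb/C mice that were untreated or had received TLI, which the labels do not spell out and which by common usage is total lymphoid irradiation. The 4 gates sorted from each pool were DC1a (CD8hi CD172-), DC1b (CD8Int CD172+), DC2 (CD8lo CD172hi) and DC3 (CD8- CD172lo). Untreated mice gave 2 pools of each subset, and TLI mice gave 4 pools of DC1a, DC1b and DC3 cells and 3 of DC2 cells, 23 libraries in all. The untreated libraries and TLI pools 1 and 2 carry batch number 1, and TLI pools 3 and 4 carry batch number 2, so the second batch holds TLI mice only, and a batch of TLI libraries is also a set of different mice. Ages of these mice are not given in the sources used here. Each library is a subset sorted from a pool of mice, and by the labels the subsets of a pool come from the same mice. The main fit took all libraries as independent, so its p-values measure the spread between libraries within groups. They do not measure the spread between pools alone.

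IRF proteins share a DNA-binding domain that reads the interferon-stimulated response element (ISRE), a repeat of GAAA. IRF3, IRF5 and IRF7 are held inactive in the cytoplasm until phosphorylated downstream of Toll-like receptors, cytosolic RNA sensors or the cGAS and STING pathway, and then drive the genes of type I interferon and of inflammatory cytokines. Type I interferon brings STAT2 and IRF9 into the complex ISGF3, which binds ISREs and raises many genes, Irf7 among them. IRF1 is induced by interferon gamma and drives antigen processing genes, IRF2 competes with it for the same sites, STAT3 carries the signals of IL-6, IL-10 and the FLT3 receptor, and STAT4 that of IL-12. In dendritic cells IRF7 is best known for its constitutive expression in plasmacytoid DCs (pDCs), and IRF2 as a factor required for part of the CD8 negative population. Several of these proteins, IRF3, IRF5 and IRF7 among them, are also regulated after translation, and the data here are of transcripts only.

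Total counts per library ran from 19256447 to 36997890, and 3 counts, taken as the floor, equal 0.0811 to 0.156 CPM (the count relative to the library total). Floors cover counting error only, since PCR copies of a molecule cannot be told from separate molecules here. Cd8a stood at 459 ± 12.4 CPM (SD, n = 2) in untreated DC1a and 0.513 ± 0.138 CPM (n = 2) in untreated DC2 cells, and Sirpa, which encodes CD172, at 0.222 ± 0.0677 and 224 ± 40.1 CPM. The gates were less clear elsewhere, since Cd8a ran from 0.327 to 342 CPM in TLI DC1b and reached 41.6 CPM in untreated DC3 cells, and Sirpa ran from 9.22 to 309 CPM in TLI DC2 and from 5.10 to 146 CPM in TLI DC1b cells. RNA of other cell types differed between groups. The summed level of 12 pDC genes, all 12 above the floor there, was 6675 and 9093 CPM in the untreated DC1b libraries and 48.7 to 365 CPM in the other 21. The 9 erythroid genes found summed to 19886 to 133912 CPM in the 7 TLI libraries of batch 1, to 144 to 7148 CPM in the 8 of batch 2 and to 56.7 to 2276 CPM in the untreated libraries. Neutrophil genes reached 21048 CPM in TLI DC1b pool 1 and 9203 CPM in TLI DC1b pool 4, and natural killer cell genes 4314 CPM in TLI DC3 pool 1. Monocyte or macrophage genes summed to 62.8 to 158 CPM in all DC1a libraries, 909 to 2605 CPM in all DC1b libraries, 277 to 493 CPM in untreated and 949 to 2194 CPM in TLI DC2 cells, and 310 to 612 CPM in DC3 cells. B cell genes were at 202 to 5271 CPM, highest in TLI DC1b pool 3. These sums move with the differences between subsets given below, and their part in them was not tested. In such bulk samples fewer cells of a type and less RNA per cell cannot be told apart.

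**Figure D1:**
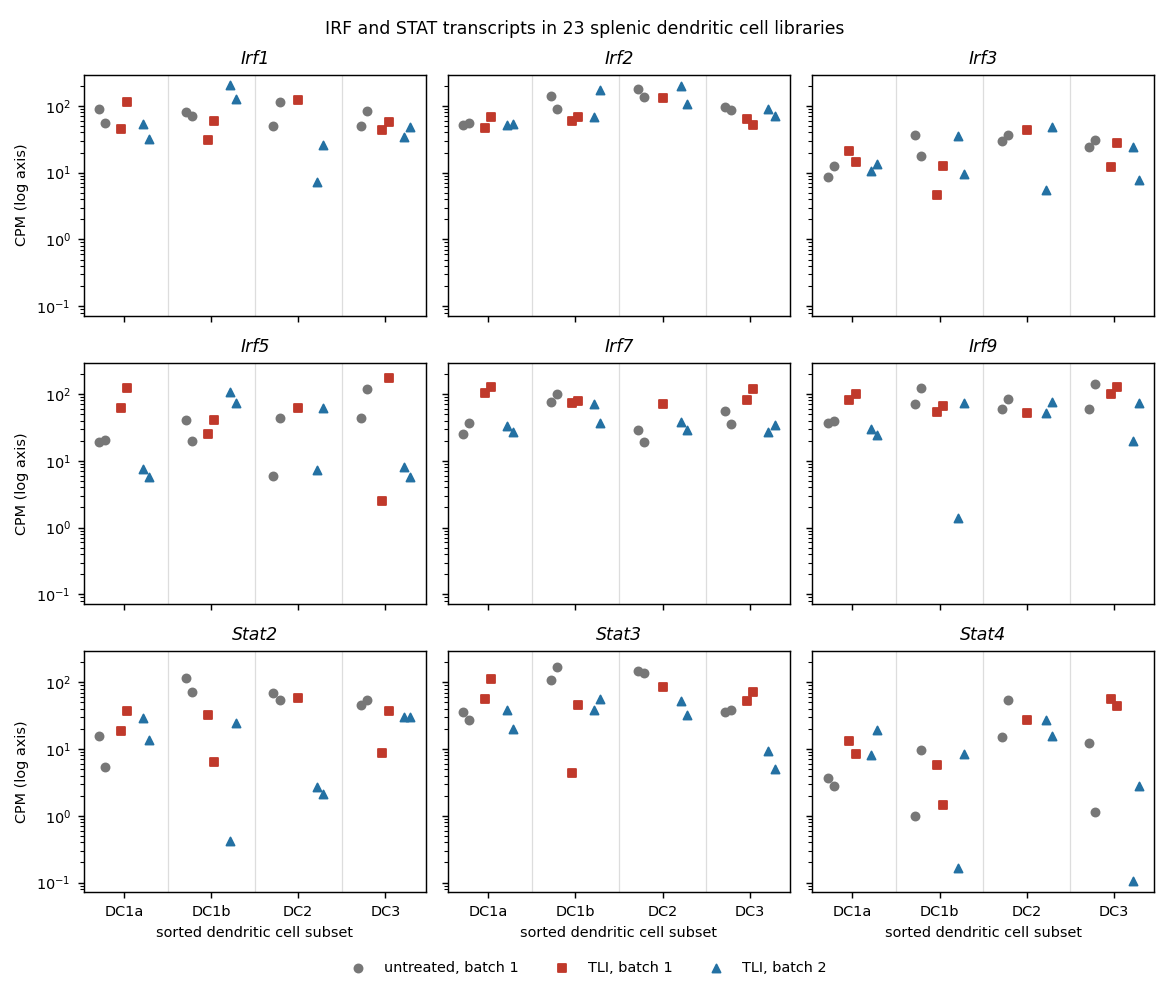
CPM on a log axis of each gene (1 panel each) in every library, by sorted subset on the x axis, with grey circles for untreated mice, red squares for TLI batch 1 and blue triangles for TLI batch 2. Irf2 and Irf7 stay within a narrow band of the axis, whereas single libraries of Irf9, Stat2 and Stat4 fall to 1.41 CPM or below.

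All 9 transcripts were above the floor in every library, except 1 value of Stat4 at the floor. The lowest count of any member was 3, for Stat4 in TLI DC3 pool 3, and the next lowest were 6 for Stat4 and 15 for Stat2, both in TLI DC1b pool 3. Per length, as counts scaled to exonic length and library total (RPKM), the mean level over the 8 groups was 17.6 for Irf1, 15.5 for Irf5, 14.5 for Irf7, 13.2 for Irf2 and 12.9 for Irf9. It was lower for Stat3 (6.96 RPKM), Irf3 (6.52 RPKM), Stat2 (6.41 RPKM) and Stat4 (3.73 RPKM). Neighbours in this order were not separable, because the range of group means within a gene, for example 6.85 to 28.2 RPKM for Irf5, was wider than the steps between genes.

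The genes differed most in how steady they were between libraries. The highest CPM was 4.21 times the lowest for Irf2 and 6.76 times for Irf7. It was 10.5 times for Irf3, 27.4 times for Irf1, 39.1 times for Stat3, 68.4 times for Irf5, 101 times for Irf9, 282 times for Stat2 and 526 times for Stat4. The biological coefficient of variation, the spread between libraries of a group that counting does not account for, was 0.340 for Irf2 and 0.364 for Irf7, values below which 5.17% and 6.92% of the genes tested lay, and 0.641 to 1.11 for the other 7, with a median of 1.01 over all genes. Untreated DC1a cells had the lowest group mean of all 8 groups for Irf2, Irf3, Irf5, Irf9, Stat2, Stat3 and Stat4.

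In the GRCm38 annotation Irf1 lies on the plus strand of chromosome 11 (53770014 to 53778374), Irf2 on chromosome 8 (46739732 to 46847458, plus), Irf3 on chromosome 7 (44997648 to 45002848, plus) and Irf5 on chromosome 6 (29526625 to 29541871, plus). Irf7 lies on the minus strand of chromosome 7 (141262706 to 141266481) and Irf9 on chromosome 14 (55603571 to 55610030, plus). Stat2 lies on chromosome 10 (128270559 to 128292849, plus), Stat3 on chromosome 11 (100885098 to 100939540, minus) and Stat4 on chromosome 1 (51987148 to 52107189, plus). Irf1, Irf2 and Stat2 hold an ISRE core or a gamma-activated site (GAS), the sequence STAT dimers bind, in the promoter window of their first RefSeq start, and Irf7 a TATA box. These stretches are shown because IRF and STAT proteins are known to act on each other's genes through such sites. The windows run from 250 bases before to 50 bases after each RefSeq start (GRCm38.p6), and were searched on both strands for the ISRE core, taken as GAAA repeated after any 2 bases, for the GAS as TTCNNNGAA, which reads the same on both strands, and for TATAAA. Capitals mark the match in each line, and the lines are written along the strand of the gene.
Irf1, GAS first base 90 bases before the start, chr11:53769904-53769952, plus strand: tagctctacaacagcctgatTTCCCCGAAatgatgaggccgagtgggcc
Irf2, ISRE core 241 bases before the start, chr8:46739495-46739533, plus strand: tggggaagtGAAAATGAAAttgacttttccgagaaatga
Irf2, GAS 224 bases before the start, chr8:46739501-46739549, plus strand: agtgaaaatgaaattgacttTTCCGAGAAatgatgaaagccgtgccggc
Stat2, ISRE core on the opposite strand 222 bases before the start, chr10:128270256-128270305, plus strand: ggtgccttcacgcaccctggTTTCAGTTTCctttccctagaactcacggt
Irf7, TATAAA 29 bases before the start, chr7:141266428-141266473, minus strand: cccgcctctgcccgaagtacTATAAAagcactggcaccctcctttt
The ISRE core was present in 3.44%, the GAS in 8.3% and TATAAA in 13.6% of 32851 windows of all genes. Irf2 holds both an ISRE core and a GAS. Stat4 has an ISRE core 97 bases before its other annotated start, and no match was found in the windows of Irf3, Irf5, Irf9 or Stat3, which says only that these letters are not in them.

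Irf7 gave the only difference past the threshold, and it was between batches. In DC1a cells of TLI mice Irf7 stood at 105 and 129 CPM in pools 1 and 2 and at 33.0 and 26.8 CPM in pools 3 and 4. In DC3 cells of the same mice it stood at 81.3 and 119 CPM in batch 1 and at 27.3 and 33.9 CPM in batch 2. In DC2 cells it was 70.0 CPM in pool 1, against 37.6 and 29.3 CPM in pools 3 and 4. DC1b cells showed the same order with a smaller gap, since pools 1 and 2 had 72.1 and 77.8 CPM, pool 3 had 71.6 CPM and pool 4 had 36.7 CPM. The libraries of batch 1 thus lay above those of batch 2 without overlap within each of the 4 subsets, which holds for 4.63% of the genes tested and for none of the other 8 members. Across subsets the ranges just met, with 70.0 to 129 CPM over the 7 libraries of batch 1 and 26.8 to 71.6 CPM over the 8 of batch 2.

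In the fit of all libraries Irf7 was lower in batch 2 by a log2 fold change of -1.30 ± 0.252 (SE, 95% confidence interval -1.83 to -0.77, edgeR quasi-likelihood adjusted p = 0.00179), or 2.46-fold. Of all genes tested 17.4% were called between the batches and 8.07% were called lower in batch 2, and 1 of the 9 members was called. Markers of other cells moved with the same split. All 9 erythroid genes, 7 of 10 natural killer cell genes and 5 of 10 T cell genes were called lower in batch 2, and of the 8 dendritic cell genes 5 were lower and 1 higher. Erythroid RNA stood at 19886 CPM or more in every library of batch 1 and 7148 CPM or less in every library of batch 2. With the 11 hemoglobin genes taken out of the library totals the difference was -1.30 (edgeR adjusted p = 0.00181), and beyond this change of totals the part of these cells was not tested. DESeq2 called Irf7, Stat3 and Irf5 between the batches, all lower in batch 2, beside 30.2% of all genes, and limma-voom called Irf7 alone. The share of all genes that limma-voom called is not given here.

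**Figure D2:**
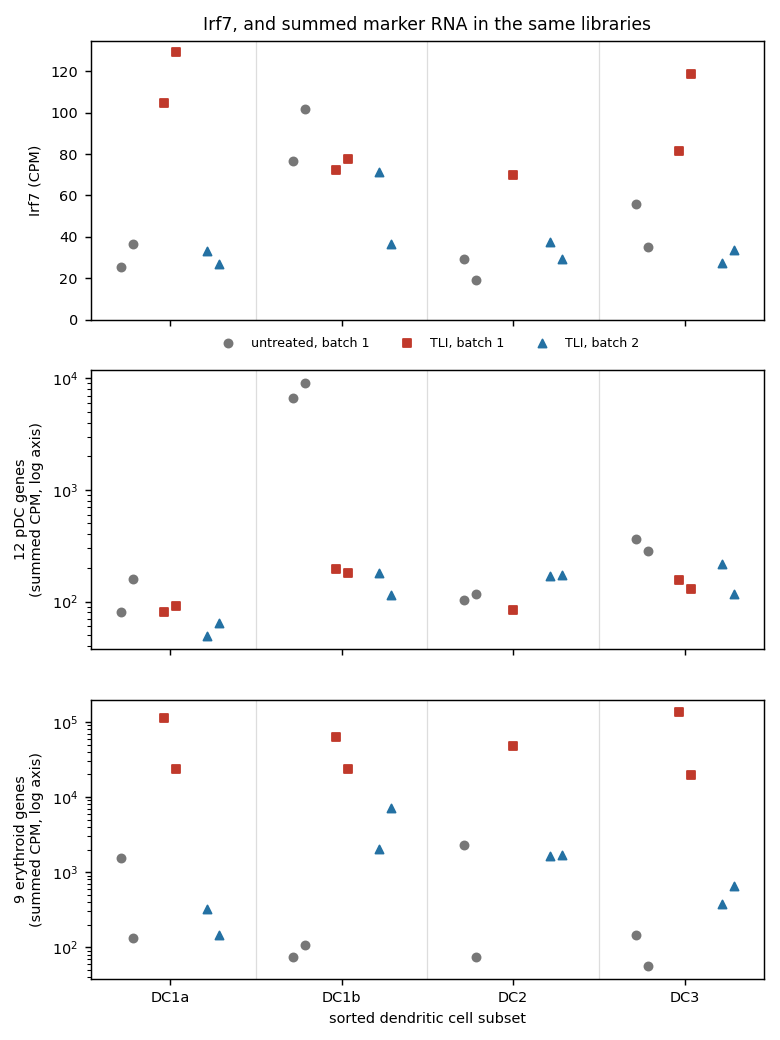
Irf7 in CPM on a linear axis (top), and the summed CPM of 12 pDC genes (middle) and 9 erythroid genes (bottom) on log axes, in each library by subset, with symbols for untreated mice and the TLI batches. Within every subset the TLI libraries of batch 1 (red squares) lie above those of batch 2 (blue triangles) for both Irf7 and erythroid RNA, and the untreated DC1b libraries, at 6675 and 9093 CPM, stand alone for pDC RNA.

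Against untreated mice Irf7 was higher in TLI cells of batch 1 in 3 of the subsets, and the call was not reached. Untreated DC1a libraries had 25.2 and 36.4 CPM, untreated DC2 libraries 29.1 and 19.1 CPM and untreated DC3 libraries 55.7 and 35.1 CPM, all below the TLI libraries of batch 1 named above. The means of batch 1 were 3.80-fold higher in DC1a and 2.21-fold higher in DC3 cells, and the single DC2 library was 2.91-fold higher. Such a separation in all 3 of these subsets was met by 2.68% of the genes tested. The TLI libraries of batch 2 lay within the untreated range in DC1a cells, above it in DC2 cells and below it in DC3 cells. All TLI libraries of DC2 cells were therefore above the untreated ones, with a mean 1.90-fold higher, as in 10.6% of genes.

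The fitted differences, which refer to batch 1 because the untreated mice belong to it, were 1.73 ± 0.450 (SE, log2, 95% interval 0.78 to 2.68) in DC1a, 1.71 ± 0.482 (0.70 to 2.73) in DC2 and 1.11 ± 0.438 (0.19 to 2.04) in DC3 cells. Their edgeR adjusted p-values were 0.280, 0.269 and 0.419. DESeq2 called the first pair, with adjusted p = 0.00137 in DC1a and 0.00643 in DC2 cells, in comparisons in which it called 3.82% and 4.55% of all genes and edgeR 0.0102% and 0.0612%. Without the term for batch, which lets all TLI pools count alike, the differences were 1.33, 0.93 and 0.69 on the log2 scale. In DC1b cells the fitted difference was 0.54 (95% interval -0.40 to 1.47), although the mean CPM was 0.841 of the untreated mean in batch 1 and 0.724 over all TLI pools, and with batch 1 alone it was 0.07. Whether the TLI effect differed between subsets was not called (interaction, edgeR adjusted p = 0.728).

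Among untreated subsets Irf7 was highest in DC1b cells, at 76.7 and 102 CPM, and had its lowest mean in DC2 cells, at 29.1 and 19.1 CPM, which overlapped DC1a cells. DC1b cells had 2.89-fold the mean of DC1a cells and 3.70-fold the mean of DC2 cells, and the groups did not overlap. With 2 libraries a side 47.9% of all genes did not overlap between DC1b and DC1a cells, 30.5% with DC1b higher, and 40.2% did not between DC2 and DC1b cells, a figure that includes the 18.1% of genes with DC2 higher, the direction opposite to that of Irf7. The fitted log2 differences were 1.25 ± 0.475 (edgeR adjusted p = 0.338) for DC1b versus DC1a and -1.80 ± 0.482 (edgeR adjusted p = 0.152) for DC2 versus DC1b, and DESeq2 called the second (adjusted p = 0.00251). Within pools of mice DC2 cells had less Irf7 than DC1b cells in 5 of 5 pools, at 0.188 to 0.971 of their level, which 3.32% of genes do. The pDC genes that mark the untreated DC1b libraries moved with this order, with Siglech at 1509 CPM, and their part in it was not tested. In TLI mice, in which the DC1b libraries held 114 to 194 CPM of pDC genes, DC1b cells were highest in 2 of 4 pools.

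**Figure D3:**
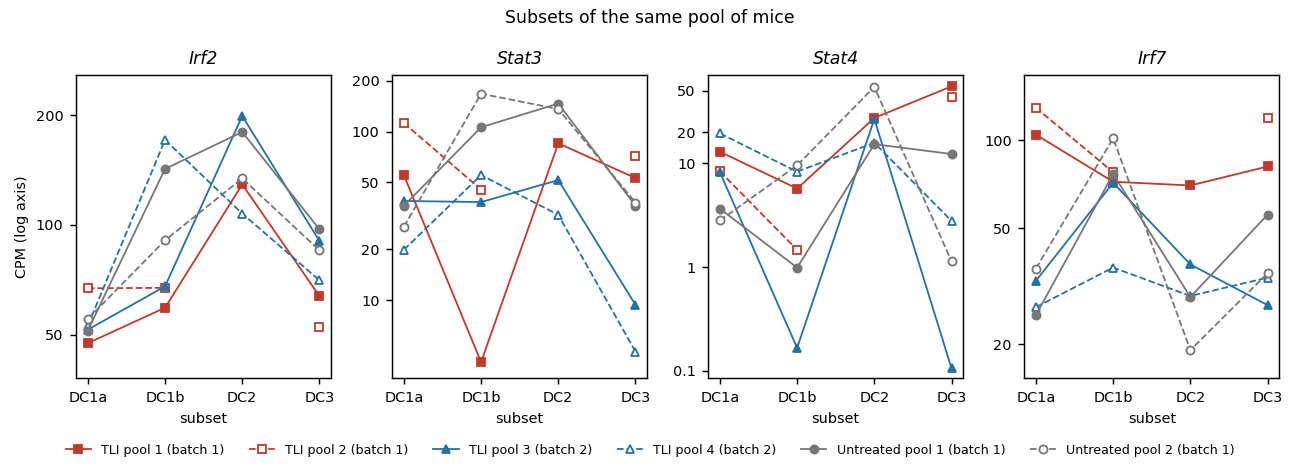
CPM on a log axis of Irf2, Stat3, Stat4 and Irf7 across the 4 subsets, with a line for each pool of mice (grey untreated, red TLI batch 1, blue TLI batch 2, dashed for pools 2 and 4) and a gap where TLI pool 2 has no DC2 library. Irf2 peaks in DC2 cells in 4 of 5 pools and is lowest in DC1a cells in 5 of 6, and Stat4 rises from DC1b to DC2 cells in 5 of 5.

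Irf2, the competitor of IRF1, was higher in DC2 than in DC1a cells of every pool, without reaching the call. It stood at 51.3 and 55.2 CPM in untreated DC1a cells and at 47.3, 67.0, 51.6 and 52.9 CPM in TLI DC1a cells. In DC2 cells it stood at 180.0 and 134 CPM in untreated and at 129, 199 and 107 CPM in TLI mice. No DC1a library reached the lowest DC2 library, a separation in this direction found for 4.94% of genes over all pools. It follows that DC2 cells exceeded DC1a cells of the same mice in 5 of 5 pools, by 2.03-fold to 3.86-fold, as did 12.4% of genes.

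The fitted log2 difference of Irf2 between DC2 and DC1a cells was 1.36 ± 0.438 (95% interval 0.43 to 2.28) in untreated and 1.03 ± 0.330 (0.33 to 1.72) in TLI mice. The edgeR adjusted p was 0.148 and 0.107, so neither was called, whereas DESeq2 called both (adjusted p = 0.0171 and 0.0277). DC3 cells had 97.3 and 85.2 CPM in untreated and 52.4 to 90.3 CPM in TLI mice, and lay below DC2 cells in 5 of 5 pools, at 0.453 to 0.656 of their level, as did 7.5% of genes. DC1b cells had 143 and 90.7 CPM in untreated and 59.2 to 171 CPM in TLI mice, and exceeded DC1a cells in 6 of 6 pools, by 1.00-fold to 3.24-fold, as did 6.14% of genes. Between TLI and untreated mice Irf2 had a log2 difference of -0.04 (95% interval -0.85 to 0.77) in DC1a cells and -0.28 to -0.47 in the other subsets, none of them called. The 4 TLI values of DC1b cells include 171 CPM in pool 4, the library with 9203 CPM of neutrophil genes. Pool 1, with 21048 CPM of these genes, had 59.2 CPM of Irf2, and their part was not tested. Without DC1b pool 4, which is in neither group compared, the TLI difference between DC2 and DC1a cells was 1.08 (edgeR adjusted p = 0.0304). That difference passed the threshold in 4 of 37 alternatives.

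Irf1, by contrast, showed no order of subsets that the pools shared. In untreated mice its group means lay between 67.0 and 81.1 CPM, and the libraries of each pair of subsets overlapped, while for example 39.9% of genes did not between DC3 and DC1b cells. In TLI mice DC1b cells held 31.2 and 59.7 CPM in pools 1 and 2 and 202 and 126 CPM in pools 3 and 4, whereas DC2 cells held 122 CPM in pool 1 and 7.35 and 25.5 CPM in pools 3 and 4. The batches thus stood in opposite order in these subsets, each without overlap, as for 42.8% of genes in DC1b and 64.5% in DC2 cells in either direction. DC3 cells had a log2 difference of -1.47 ± 0.694 against DC1b cells of TLI mice (edgeR adjusted p = 0.419), which was 0.04 when the libraries of batch 1 alone were fitted. The difference of TLI from untreated DC1a cells was 0.02 with a 95% interval from -1.77 to 1.80.

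Irf3 and Irf5 are the partners of IRF7 downstream of the pattern recognition receptors. Irf3 stood at 8.75 and 12.5 CPM in untreated DC1a cells, below the 17.8 to 36.9 CPM of the other untreated libraries, and 30.5%, 29.1% and 27.8% of genes were likewise higher without overlap in DC1b, DC2 and DC3 than in DC1a cells. In TLI mice the ranges overlapped, with 10.6 to 20.9 CPM in DC1a and 4.64 to 48.6 CPM in the other cells. Irf5 had 62.6 and 124 CPM in batch 1 and 7.49 and 5.79 CPM in batch 2 of TLI DC1a cells, but 25.3 and 40.8 CPM in batch 1 and 109 and 74.3 CPM in batch 2 of TLI DC1b cells. Its log2 difference between the batches was -1.97 ± 1.04 (edgeR adjusted p = 0.204), and neither gene was called in any comparison by edgeR. In TLI DC3 cells Irf5 was 2.51, 172, 8.19 and 5.78 CPM in pools 1 to 4, so that a single library set the mean of the group. Irf5 shares 14.2% of its exonic bases with Tnpo3 on the opposite strand, and with no word on stranded counting in the sources used here, reads of that stretch cannot be assigned.

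Stat2 and Irf9 encode subunits of ISGF3. Stat2 stood at 15.8 and 5.29 CPM in untreated DC1a cells and at 117 and 70.6 CPM in DC1b, 69.9 and 54.7 CPM in DC2 and 44.9 and 53.9 CPM in DC3 cells, and none of the others overlapped DC1a, as for 30.5%, 29.1% and 27.8% of genes in this direction (47.9%, 49.4% and 43.2% in either). All TLI libraries of DC1b cells (31.9, 6.38, 0.415 and 24.4 CPM) and of DC3 cells (8.62, 37.1, 29.9 and 30.1 CPM) lay below the untreated ones, a separation in either direction found for 20.9% and 14.5% of genes. The log2 differences were -1.76 (95% interval -4.35 to 0.83) and -0.15 (-2.90 to 2.59), and were not called by edgeR, DESeq2 or limma-voom. With batch 1 alone they were -1.89 and -1.02 (edgeR adjusted p = 0.481 and 0.696). The mean CPM of batch 1 was 4.92-fold lower than that of untreated cells in DC1b and 2.16-fold lower in DC3 cells. In the DC1b gate the pDC genes summed to 6675 and 9093 CPM in untreated and 114 to 194 CPM in TLI libraries, and their part was not tested. Irf9 was likewise lowest in DC1a cells of untreated mice, with 37.1 and 39.0 CPM against 58.8 to 143 CPM in the rest, a separation with the same shares of genes. The order of the other subsets differed, with the highest untreated mean in DC3 cells for Irf9 and in DC1b cells for Stat2. Over the 23 libraries the log2 CPM of both correlated with Pearson's r = 0.606, the highest of the 36 pairs of members. TLI DC1b pool 3 had the lowest value of both, 1.41 CPM of Irf9 and 0.415 CPM of Stat2, and the size of this r rests largely on that library. In that library Irf1, at 202 CPM, was at its highest of all libraries. In TLI DC1a cells Irf9 stood at 81.4 and 99.4 CPM in batch 1 and at 30.1 and 24.1 CPM in batch 2. Batch 1 was higher there without overlap, as for 28.9% of genes. With batch 1 alone the log2 difference of Irf9 between TLI and untreated DC1a cells was 1.25 (edgeR adjusted p = 0.420).

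**Figure D4:**
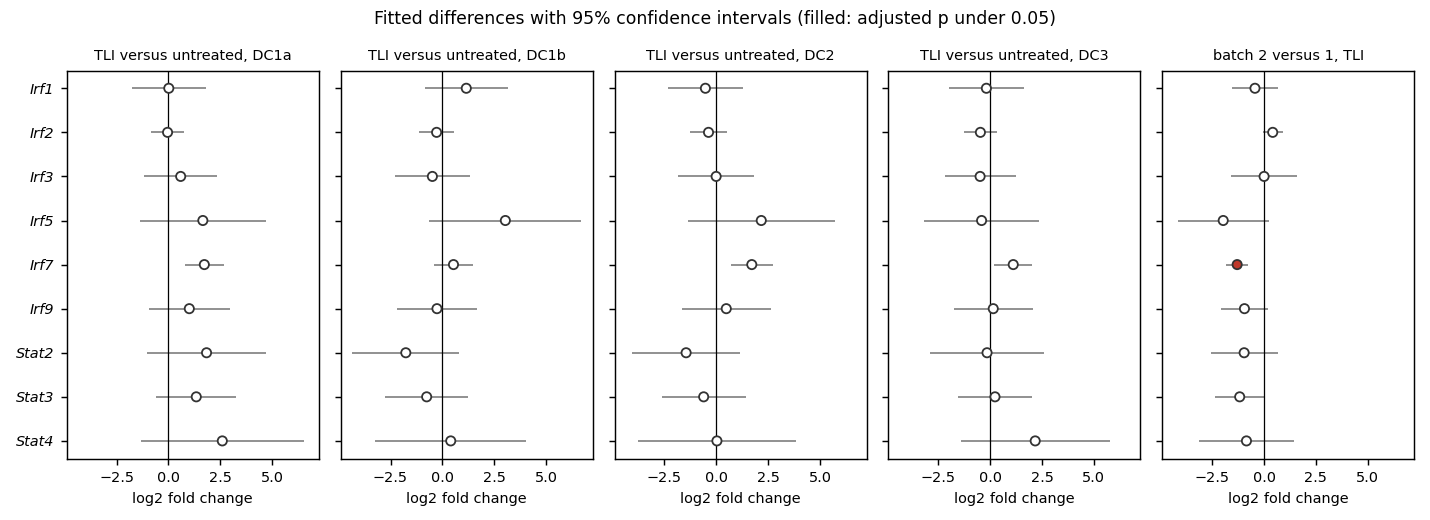
Fitted log2 fold changes with 95% confidence intervals for the 9 genes, for TLI versus untreated in each subset and for batch 2 versus batch 1 of the TLI libraries, with a filled symbol where the edgeR adjusted p was under 0.05. Irf7 in the batch panel is the only filled symbol, and the intervals of Stat4 are among the widest, from -1.33 to 6.53 in DC1a cells.

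Stat3, which carries the signals of FLT3 and IL-10 in DCs, and Stat4, the factor of the IL-12 receptor, had their highest untreated means in DC2 cells, with no difference called by edgeR. Stat3 had 147 and 136 CPM in untreated DC2 and 106 and 168 CPM in untreated DC1b cells, against 36.3 and 27.3 CPM in DC1a and 36.3 and 38.0 CPM in DC3 cells. DC2 cells exceeded DC1a cells of the same mice in 5 of 5 pools, by 1.33-fold to 4.99-fold, and DC3 cells lay below DC2 cells in 5 of 5 pools, where 12.4% and 7.5% of genes do the same. In TLI mice all DC1b libraries (4.29, 45.3, 38.2 and 55.3 CPM) and all DC2 libraries (85.3, 51.6 and 32.1 CPM) were below the untreated ones, where 20.9% and 25.2% of genes did not overlap in either direction. The fitted differences were not called, at -0.76 (95% interval -2.75 to 1.24) in DC1b and -0.61 (-2.63 to 1.41) in DC2 cells. Summed pDC RNA was also lower in the TLI than in the untreated DC1b libraries, and its part was not tested. With batch 1 alone the difference in DC1b cells was -2.23 (edgeR adjusted p = 0.349), and the mean CPM of batch 1 was 5.52-fold lower than that of untreated cells. Between batches Stat3 was lower in the second by -1.18 ± 0.567 (edgeR adjusted p = 0.164), and in DC3 cells it had 53.1 and 71.2 CPM in batch 1 and 9.38 and 4.95 CPM in batch 2.

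Stat4 was the least abundant and the most variable of the genes. It stood at 15.3 and 54.7 CPM in untreated and 27.5, 26.8 and 15.8 CPM in TLI DC2 cells, and no DC1b library, at 0.166 to 9.59 CPM, reached the lowest of them. That separation in this direction was found for 0.597% of genes over all pools. The same order in 5 of 5 pools of mice, seen for 5.18% of genes, follows from it and adds nothing further. The log2 difference between DC2 and DC1b cells was 2.39 ± 1.37 in TLI mice (edgeR adjusted p = 0.549). In TLI DC3 cells Stat4 had 55.4 and 43.8 CPM in batch 1 and 0.105 and 2.79 CPM in batch 2, and natural killer cell genes, from a cell type known for STAT4, stood there at 4314 and 1093 CPM in batch 1 and at 137 and 162 CPM in batch 2. Their part was not tested. The 4 TLI DC1a libraries, at 8.22 to 19.5 CPM, were above both untreated ones, at 3.66 and 2.82 CPM, as for 4.36% of genes, with a fitted log2 difference of 2.60 (95% interval -1.33 to 6.53). Their mean CPM was 3.79-fold that of untreated cells, and 3.30-fold in batch 1. With batch 1 alone the fitted log2 difference was 1.75 (edgeR adjusted p = 0.639). Stat4 shares 26.7% of its exonic bases with Gm28177 on the same strand, whose group means were 1.24 to 7.54 CPM.

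Counts over the comparisons were as follows. Shares of all genes are given for edgeR and DESeq2 and not for limma-voom, whose counts therefore have none beside them. Between untreated subsets edgeR called 0 of 9 in each of 6 pairs, where it called 0.837% (DC1b versus DC1a), 1.91% (DC2 versus DC1a), 0.184% (DC3 versus DC1a), 0.398% (DC2 versus DC1b), 0.393% (DC3 versus DC1b) and 0.837% (DC3 versus DC2) of all genes. At an unadjusted p under 0.05 there were 3 of 54, beside 7.47% to 13.1% of all genes in a pair, and DESeq2 called 2 (Irf2 in DC2 versus DC1a, Irf7 in DC2 versus DC1b) and limma-voom 0. DESeq2 called 6.43%, 9.66%, 4.15%, 5.47%, 4.83% and 7.65% of all genes in these pairs. Between TLI subsets edgeR also called 0 of 9 in each pair, against 1.42% (DC1b versus DC1a), 3.4% (DC2 versus DC1a), 0.75% (DC3 versus DC1a), 0.214% (DC2 versus DC1b), 1.11% (DC3 versus DC1b) and 1.37% (DC3 versus DC2) of all genes, with 3 of 54 at an unadjusted p under 0.05 (10.4% to 17.7% of all genes in a pair), 1 called by DESeq2 and 0 by limma-voom. In these pairs DESeq2 called 7.58%, 12.5%, 5.57%, 4.98%, 6.48% and 7.97% of all genes. Over the 4 subsets at once 0 of 9 were called in untreated mice (2.37% of all genes) and in TLI mice (3.22%), with 2 and 1 at an unadjusted p under 0.05 (14.3% and 17.5% of all genes), 1 and 0 called by DESeq2 (8.7% and 10% of all genes) and 0 in each by limma-voom. For TLI versus untreated, 0 of 9 were called in DC1a (0.0102% of all genes), DC1b (0.413%), DC2 (0.0612%) and DC3 cells (0.0255%), with 1, 0, 1 and 1 at an unadjusted p under 0.05 (9.76%, 12.4%, 9.01% and 10.4% of all genes), 1, 0, 1 and 0 called by DESeq2 (3.82%, 6.44%, 4.55% and 3.73% of all genes) and 0 in each by limma-voom. The interaction called 0 of 9 by edgeR, DESeq2 and limma-voom, with 0 at an unadjusted edgeR p under 0.05 (7.82% of all genes), and edgeR called 0.0357% of all genes and DESeq2 2%.

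Medians over the 9 genes stood above those over all genes in some comparisons. The 9 were abundant, with means above those of 85.6% to 96.5% of all identifiers. The medians over all genes are thus not of genes matched in level, and shares of all genes by sign are not given here. In untreated mice the median log2 difference of the 9 was 1.06 for DC1b versus DC1a, 1.36 for DC2 versus DC1a and 0.76 for DC3 versus DC1a cells, beside 0.07, 0.11 and 0.04 over all genes, with 8, 7 and 7 of them positive. In TLI mice the same medians were -0.02, 0.19 and -0.02. In TLI versus untreated DC1a cells the median was 1.34 with 8 of 9 positive, beside 0.15 over all genes, and in the other subsets it lay between -0.26 and -0.01. These comparisons share the untreated DC1a libraries, in which 7 of the 9 had their lowest group mean. Between the batches 8 of 9 were lower in the second, with a median of -0.95 beside -0.23.

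The genes that act upstream of these factors included calls between the same subsets. Of the 20 activators of IRF3, IRF5 and IRF7 that were tested, 4 were called between DC2 and DC1a cells of TLI mice, 3 higher and 1 lower, where 3.4% of all genes were called. Tlr3, the sensor of double-stranded RNA in cross-presenting DCs, stood at 107 to 303 CPM in DC1a and 1.00 to 4.72 CPM in DC2 cells (log2 -6.85 ± 0.823, edgeR adjusted p = 8.33e-05). Tlr7, the sensor of single-stranded RNA, stood at 0.110 to 0.246 CPM in DC1a and 51.0 to 101 CPM in DC2 cells, and Slc15a4, a lysosomal transporter that TLR7 and TLR9 signalling through IRF5 depends on, at 11.4 ± 8.21 (SD, n = 4) and 154.5 ± 101 CPM (n = 3). Tlr3 and Tlr7, endosomal receptors upstream of IRF3 and IRF7, thus stood in opposite order in these subsets, while Irf3 and Irf7 were not called. Tlr9, on the same list, was not called between these subsets. Of the other IRF and STAT genes, Irf8, the lineage factor of DC1 cells, was 523.6 ± 71.9 CPM (n = 2) in untreated DC1a and 18.5 ± 23.9 CPM (n = 2) in untreated DC2 cells, a log2 difference of -5.06 ± 0.950 (edgeR adjusted p = 0.00864).

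Of the 7 interferon receptors and their kinases, single genes were called in DC1b cells, where 0.837% of all genes were called against untreated DC1a cells and 0.413% between TLI and untreated mice. Ifnar2 was 569 ± 1.23 CPM (n = 2) in untreated DC1b and 121 ± 6.39 CPM (n = 2) in untreated DC1a cells, and was the single gene of 7 called there (log2 1.94 ± 0.400, edgeR adjusted p = 0.0276). Ifnar1, the other chain of the receptor, fell from 319 ± 16.4 CPM (n = 2) in untreated to 32.5 ± 26.3 CPM (n = 4) in TLI DC1b cells (log2 -2.70 ± 0.402, edgeR adjusted p = 0.00667), again as 1 gene of 7. The pDC genes summed to 6675 and 9093 CPM in the untreated and 114 to 194 CPM in the TLI libraries of this gate, and their part was not tested.

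Of the 23 targets of ISGF3 tested, 5 were called higher in DC2 than in DC1a cells of TLI mice and 0 lower, with a median log2 difference of 1.39 beside 0.02 over all genes and 3.4% of all genes called. Of the 10 monocyte or macrophage genes 6 were called higher in the same comparison, and their part was not tested. Rtp4, a chaperone of opioid and other receptors that interferon induces, had 150 to 296 CPM in DC2 and 0.162 to 8.41 CPM in DC1a cells, and Ifit3, which acts with IFIT1 against viral RNA, had 7.83 to 43.8 and 0 to 1.09 CPM. In untreated mice 1 of 23 was called in that comparison, beside 1.91% of all genes. No target of ISGF3 was called by edgeR between TLI and untreated cells of any subset. Of all genes it called 0.0102% (DC1a), 0.413% (DC1b), 0.0612% (DC2) and 0.0255% (DC3) in these comparisons. The median log2 differences of the 23 targets were 1.08, 0.72, 1.23 and -0.03 in these subsets, beside 0.15, 0.09, 0.02 and -0.05 over all genes. Of the 17 targets of IRF1 tested, 4 were called between DC2 and DC1a cells of TLI mice (1 higher and 3 lower, beside 3.4% of all genes) and 2 in untreated mice (both lower, beside 1.91%). Cxcl9, the chemokine that draws T cells through CXCR3, and Psmb9, a subunit of the immunoproteasome, were lower in DC2 than in DC1a cells of both untreated and TLI mice. Casp1, the caspase that processes IL-1 beta, was higher in DC2 cells of TLI mice, at 241 ± 64.2 CPM (n = 3) against 46.8 ± 12.1 CPM (n = 4) in DC1a cells (log2 1.98 ± 0.314, edgeR adjusted p = 0.00127). Cxcl9 was at 17.3 ± 2.22 CPM (n = 2) in untreated DC2 and 440 ± 12.2 CPM (n = 2) in untreated DC1a cells (log2 -4.87 ± 0.633, edgeR adjusted p = 0.000498).

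Between the batches of TLI mice 6 of 17 IRF1 targets were called, all lower in the second, with a median of -1.34, while Irf1 was not called at -0.44 (95% interval -1.56 to 0.68). They included Tap2, a chain of the peptide transporter, and Psmb9, with a log2 difference of -1.42 ± 0.155 (edgeR adjusted p = 1.31e-05). Of the 13 negative regulators, 4 were called, all lower, with Socs1, Ptpn1 and Pias1 the largest. Of the 7 interferon receptors and kinases, Ifngr1, Ifngr2 and Ifnar1 were called, all lower. The 12 STAT3 targets gave 2 lower (Junb and Pim1), the 11 cytokine receptors of STAT3 and STAT4 1 higher and 2 lower, the activators 1 higher and 2 lower, and the ISGF3 targets 1 higher (Trim30a) and 2 lower (Rsad2 and Bst2). All of these stand beside the 17.4% of genes called between the batches.

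The genes whose log2 CPM was most like each member over the 23 libraries, among the 10150 genes averaging 5 CPM or more, were for Irf7 Ctse (Pearson's r = 0.819), Lck (0.804) and Lax1 (0.799), and for Irf2 Apbb1ip (0.863), Nfatc3 (0.857) and Elf1 (0.851). Irf9 had Chtf8 (0.901), Trmt2a (0.891) and Mfap1a (0.879), and Stat2 had Adsl (0.819). The first for Irf1 was P4ha1 (0.796), for Irf3 Zfr (0.786), for Irf5 Mettl3 (0.759), for Stat3 Dph7 (0.812) and for Stat4 Bub1b (0.757). No member was among the 3 most like another. Between members r ran from -0.272 (Irf2 with Irf7) to the 0.606 of Irf9 with Stat2, which rests largely on TLI DC1b pool 3. These correlations are descriptions over libraries that share pools, batches and sorting gates. Lck is itself 1 of the 5 T cell genes called lower in batch 2.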

How the data were processed

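RNA of sorted splenic DCs was amplified with SMARTseq v4 and made into libraries with KAPA HyperPlus. The submitters' processing notes name Trimmomatic, HISAT2, StringTie, DESeq2 and GRCm38. The authors deposited a table of estimated counts per Ensembl gene, already whole numbers, for 23 libraries with totals of 19256447 to 36997890. Whether counting used strand is not given in the sources used here. Symbols came from GENCODE M21 (47310 of 47729 identifiers matched, 419 did not). All 23 columns were mapped by name.

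The design had assumed raw counts, and the estimated counts were used in the same tests. Genes were filtered by filterByExpr over the 8 groups, leaving 19597, and scaled by TMM. The edgeR quasi-likelihood test (edgeR 4.0.16, R 4.3.3) was fitted to all libraries with group means and a term for batch 2, with Benjamini-Hochberg adjustment over all genes tested and a threshold of 0.05. Batch 2 holds TLI mice only, so that term is estimated from TLI pools. Scripts were tested on simulated data.

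Alternatives were DESeq2 1.42.0, limma-voom (limma 3.58.1) with the pool as a random block, a fixed pool block, other scaling and filters, no batch term, batch 1 alone, only the libraries compared and each library left out. By the labels the subsets of a pool come from the same mice. Of 33 same-pool pairs of libraries, 0 had a correlation of deviations over 0.1 (median -0.0423). The 2 untreated libraries of a group deviate from their mean by mirrored amounts, so untreated pools 1 and 2 repeat the same values. The 33 values are therefore not separate checks and cannot show that libraries of a pool are independent.

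The members and lists were chosen with earlier results of these data known. All 9 members were tested in every comparison, and the text gives single values for a part of these tests. It names the 3 genes most alike for Irf2, Irf7 and Irf9 and the first for the others. From each pathway list it names up to 3 of the genes with the largest differences past the threshold.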

Additional observations from a re-analysis of the deposited data

Results flagged for a closer look

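In 3 of 27 groups of 4 libraries tested, a single library stood apart from the others by a gap that took most of the range of its group (past Dixon's 95% critical value, which chance passes in about 1 of 20 groups). Irf2 was highest in TLI DC1b pool 4, at 171 CPM beside 59.2 to 67.8 CPM in the other pools, a gap of 0.924 of the range. Irf7 was lowest in the same library, at 36.7 CPM beside 71.6 to 77.8 CPM, a gap of 0.849. Neutrophil genes summed to 9203 CPM in that library and to 21048 CPM in TLI DC1b pool 1, and their part was not tested. Irf5 was highest in TLI DC3 pool 2, at 172 CPM beside 2.51 to 8.19 CPM in the other pools, a gap of 0.966.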

How the results depend on the processing

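The lower Irf7 in batch 2 passed the threshold in 34 of 34 alternatives, with log2 differences of -1.49 to -1.19. Of 359 alternatives for the counts of members called, 345 were unchanged or stayed within 1.5 times. The count was 0 in the main fit for every result but the batch term, so most of these are counts of 0 that stayed 0. For the alternatives other than DESeq2 the shares of all genes called are not given here. DESeq2 called 1 member over untreated subsets, 2 in untreated pairs, 1 in TLI pairs, 1 for TLI in DC1a, 1 for TLI in DC2 cells and 3 between the batches. In untreated pairs, requiring at least 10 counts in every library called 1 (Irf2, DC2 versus DC1a) and fitting only the libraries compared called 1 (Stat3, DC2 versus DC1a). In TLI pairs library totals without scaling called 1 (Irf2). Leaving out TLI DC1b pools 1 and 4, chosen after seeing the data, called 1 in TLI pairs (Irf2) and 2 between the batches (Irf7 and Stat3), and leaving out TLI pool 1, also chosen after seeing the data, called 2 (Irf7 and Stat3). With single libraries left out, TLI pairs gave 0 to 1, called without TLI DC1b pool 4, and the batches gave 1 to 2, with Stat3 called without TLI DC1b pool 1. Irf1 in DC3 versus DC1b cells of TLI mice turned from -1.47 to 0.0436 with batch 1 alone, and the cause of these changes was not tested. The pool as a block changed no call of a member, with Irf7 between the batches at -1.31 in the random block. The fixed block gives no value for TLI or batch, and the fit of only the libraries compared was not run for the interaction. Library totals moved the median of all genes by up to 0.30 (log2). Stat4 at 3 counts and Stat2 at 15 counts in single libraries limit their precision.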
